A study of Mus musculus with 18 samples.

Results

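The genes described here are 9 regulators of presomitic and early somite mesoderm: Tbx6, Msgn1, Pcdh8, Pcdh19, Tcf15, Meox1, Meox2, Foxc1 and Foxc2. They were chosen by name and not by their values, and each, a protein-coding gene, was found once among the 53465 gene identifiers of the deposited table. RNA was sequenced from 18 libraries of 9 mouse embryos at embryonic day 9, and every embryo gave an anterior and a posterior library. The anterior piece was somite-bearing axis. The posterior piece held the axial bud with the youngest somites, and the head part without somites was left out.

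There were 4 groups, of 5 control and 4 double knockout (DKO) libraries in each of the 2 regions. In the DKO embryos Meis1 and Meis2, which encode homeodomain transcription factors, were deleted conditionally with Delta1Cre. Delta1 (Dll1) is a Notch ligand gene of presomitic mesoderm and other tissues, and where Cre acted in these embryos was not measured. The alleles of the control embryos are not given in the sources used here. Control embryos had 20, 21, 23, 23 and 24 somites by the labels, and DKO embryos had 20, 22, 23 and 24.

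Vertebrate somites form when presomitic mesoderm, fed by the axial bud, is cut into blocks by a segmentation clock. Tbx6 and Msgn1 encode transcription factors that specify presomitic mesoderm, and both are switched off as somites form. Pcdh8 and Pcdh19 encode protocadherins, adhesion molecules present in anterior presomitic mesoderm and at forming somite borders. Tcf15 (paraxis) is a basic helix-loop-helix factor needed for somites to become epithelial. Meox1 and Meox2 are homeobox genes of somites and sclerotome, and Foxc1 and Foxc2 are forkhead genes of paraxial and intermediate mesoderm.

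Libraries held 12.7 to 38.2 megacounts. Meis1 averaged 125 ± 8.65 counts per megacount (CPM, mean ± SD, n = 5) in anterior control and 102 ± 9.52 (n = 4) in anterior DKO libraries, and 84.5 ± 15.2 and 57.5 ± 11.8 in the posterior ones. Meis2 averaged 190 ± 10.0 and 143 ± 11.3 in anterior, and 143 ± 16.8 and 99.5 ± 11.4 in posterior libraries. Neither gene was past an adjusted p of 0.05 between genotypes in either region (adjusted p = 0.0522 to 0.336, edgeR), and a count per gene still includes transcripts that lack a deleted exon. Both libraries of control embryo 1 had sex-linked expression of the other sex than the label. Leaving that embryo out left the number of the 9 genes past the threshold at 0 in both DKO comparisons and at 9 in the control region comparison.

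Posterior and anterior pieces were compared in the control and in the DKO embryos, using edgeR's quasi-likelihood test on all genes. Adjustment was by Benjamini-Hochberg, with a threshold of 0.05. The test did not pair the pieces of an embryo, and a fit with the embryo as a block was an alternative. In controls all 9 genes passed, 8 higher in the posterior piece and Meox2 higher in the anterior piece. Tbx6 and Msgn1 met the filter on low counts only through their posterior libraries in both genotypes, so their calls and their separation of groups are no support for a difference. Of the other 7 genes, 7 passed in controls and 4 in DKO embryos. Over all 15294 genes tested the share called was 25.4%, with 12.1% called higher. The control groups did not overlap in 6 of these 7, beside 20.1% of all genes, and Foxc1 was the exception. In DKO embryos 6 of 9 genes passed, all higher in the posterior piece (Tbx6, Msgn1, Pcdh19, Tcf15, Foxc1 and Foxc2), beside 18.5% called in either direction and 8.76% called higher of all 15777 genes tested. With the embryo as a block 7 passed, as Meox2 was added on the lower side in the posterior piece (-1.22, adjusted p = 0.000192, edgeR). The DKO groups did not overlap for 2 of the 7, Pcdh19 and Foxc1, a share close to the 23.5% of all genes. The median log2 difference over the 7 genes was 0.64 in controls and 0.44 in DKO embryos, beside -0.01 and 0.01 over all genes. In bulk tissue, fewer cells of a type and less RNA per cell cannot be told apart.

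**Figure D1:**
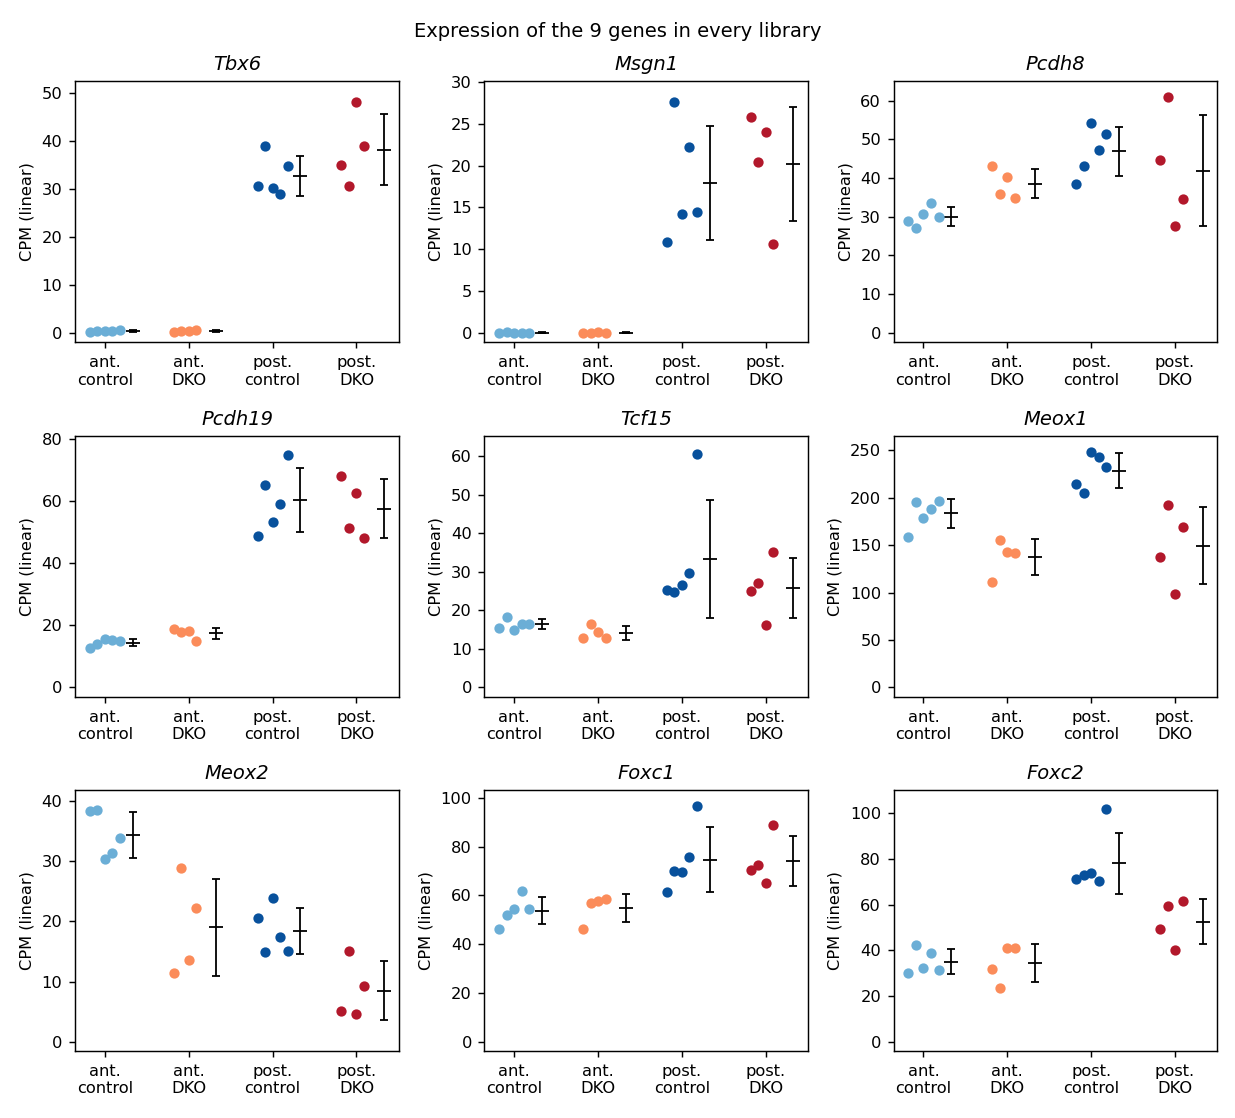
CPM of the 9 genes in every library, on linear axes, with 1 point per library and the mean ± SD beside each group. Tbx6 and Msgn1 lie near 0 in the anterior piece, Meox2 is higher there, and Meox1 is the most abundant gene of the set in every group.

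Embryos of the same region were then compared between genotypes to ask how the genes' levels differed with the loss of Meis1 and Meis2. In the anterior piece 0 of the 7 genes that could be tested passed (edgeR), where 0.0394% of 15238 genes did. At an unadjusted p below 0.05 there were 5 of 7. Of these, Pcdh8 and Pcdh19 were on the higher side in DKO, where 6.41% of all genes were, and Tcf15, Meox1 and Meox2 on the lower side, where 6.61% were. DESeq2 called 2, Pcdh8 and Meox1, beside 1.94% of the genes it gave an adjusted p. Tbx6 and Msgn1 did not pass the filter on low counts there. In the posterior piece 0 of 9 passed, beside 0.0126% of 15936 genes. At an unadjusted p below 0.05 there were 3 of 9, Meox1, Meox2 and Foxc2, all on the lower side in DKO (5.74% of all genes, with 5.27% on the higher side). DESeq2 called Meox1 and Foxc2, beside 1.08% of such genes. Control and DKO libraries did not overlap for Pcdh8, Meox1 and Meox2 in the anterior piece (5.07% of all genes) and for Meox1 and Foxc2 in the posterior piece (4.29% of all genes).

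**Figure D2:**
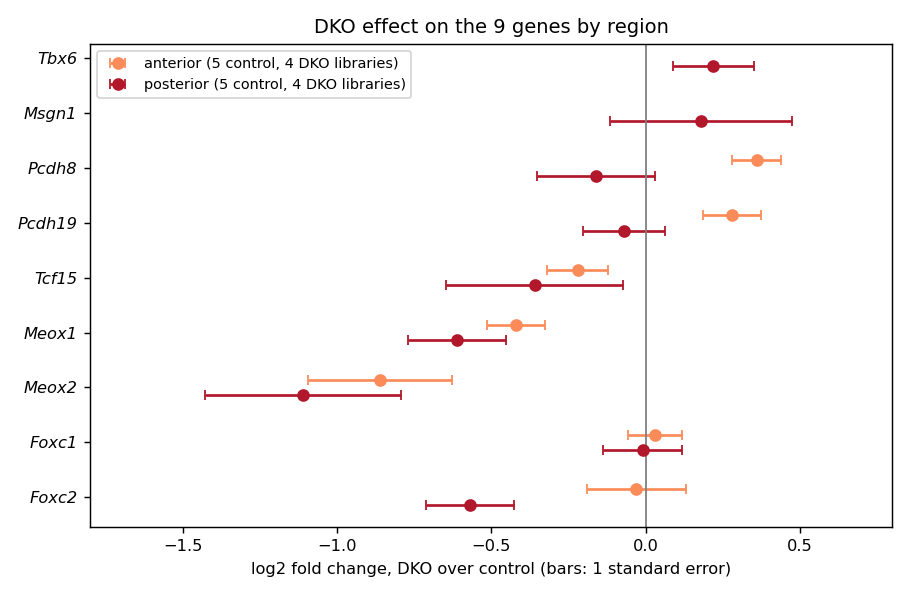
Log2 fold change of DKO over control for each gene, by region, from 5 control and 4 DKO libraries. Bars are 1 standard error, and Tbx6 and Msgn1 were not tested in the anterior piece. Meox2 has the lowest value in both regions (-0.86 and -1.11), and Foxc1 lies near 0 in both.

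Sequences before the start site are shown for Msgn1 and Tbx6, the genes found almost only in the posterior piece, and for Meox2, the gene of the opposite pattern. Each is the 250 bases before the RefSeq start of the gene, on the gene's strand, in build GRCm38.p6. Msgn1 lies at chr12:11208949-11209198 (minus strand), Tbx6 at chr7:126781233-126781482 (plus strand) and Meox2 at chr12:37108290-37108539 (plus strand). Capitals mark CTTTGA on either strand, the core of a Tcf/Lef site.
Msgn1: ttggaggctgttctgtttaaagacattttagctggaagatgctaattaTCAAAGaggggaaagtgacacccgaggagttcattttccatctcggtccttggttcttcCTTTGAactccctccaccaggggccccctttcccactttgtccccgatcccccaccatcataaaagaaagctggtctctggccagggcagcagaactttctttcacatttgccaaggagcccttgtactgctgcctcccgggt
Tbx6: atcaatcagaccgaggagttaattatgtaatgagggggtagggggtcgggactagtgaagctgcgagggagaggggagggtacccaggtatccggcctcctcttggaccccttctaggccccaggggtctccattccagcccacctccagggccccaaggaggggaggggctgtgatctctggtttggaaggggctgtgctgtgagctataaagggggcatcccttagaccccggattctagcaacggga
Meox2: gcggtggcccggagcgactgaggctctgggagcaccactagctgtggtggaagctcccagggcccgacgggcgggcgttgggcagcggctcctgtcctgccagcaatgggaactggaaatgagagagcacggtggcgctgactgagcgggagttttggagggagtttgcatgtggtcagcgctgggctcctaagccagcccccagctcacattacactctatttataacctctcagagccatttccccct

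RefSeq windows of 300 bases, 250 before and 50 after the start, were found for 6 of the 9 genes (Tbx6, Msgn1, Pcdh8, Pcdh19, Meox2 and Foxc1). They were searched on both strands for TGACAG (a Meis core), AGGTGT (a T-box sequence), CTTTGA and CANNTG (an E box). Msgn1 alone among the 6 held CTTTGA, with 2 matches, at positions -202 to -197 on the opposite strand and -143 to -138 on the gene's strand, counted from the start site. Neither match overlapped another of the motifs. Of all 32851 windows, 16% held CTTTGA and 1.7% held it at 2 or more places. TGACAG and AGGTGT were in none of the 6 windows and in 19.2% and 13.7% of all windows. CANNTG was in 3 of the 6, those of Msgn1, Pcdh19 and Meox2, and in 72.3% of all windows.

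Tbx6 (ENSMUSG00000030699, chr7:126781483-126785560) was at 30.7, 39.0, 30.1, 28.9 and 34.7 CPM in posterior control libraries 1 to 5 and at 35.1, 30.7, 48.1 and 39.0 in posterior DKO libraries 1 to 4. In anterior control libraries it was at 0.170, 0.349, 0.389, 0.345 and 0.518 CPM, from 3 to 9 counts each, and in anterior DKO libraries at 0.229, 0.463, 0.289 and 0.484, from 5 to 14 counts. Every posterior library was far above every anterior one, and the genotypes overlapped in both pieces. The posterior excess was 6.53 ± 0.175 on the log2 scale in controls (SE, adjusted p = 4.68e-10) and 6.71 ± 0.240 in DKO embryos (adjusted p = 2.21e-07). The gene entered these tests only through the posterior libraries. The posterior DKO difference was 0.22 ± 0.132 (adjusted p = 0.515).

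Msgn1 (ENSMUSG00000047002, chr12:11208360-11208972) was at 10.9, 27.6, 14.2, 22.3 and 14.5 CPM in posterior control libraries and at 25.8, 20.4, 24.0 and 10.6 in posterior DKO libraries. In the anterior piece 1 control library had 2 counts (0.0775 CPM), 1 DKO library had 1 count (0.0577 CPM) and the other 7 had 0. A count of 0 in an anterior library allows up to 3 counts, or 0.0858 to 0.233 CPM by library, for counting error only. Apart from these 3 counts, Msgn1 was counted in the posterior piece only. Over summed counts the posterior level was 781 times the anterior one in controls (95% exact counting interval 216 to 6452) and 2034 times in DKO embryos (365 to 80388), intervals that cover counting error only. The adjusted p-values were 1.29e-07 and 2.13e-06 (edgeR), but Msgn1, like Tbx6, entered these tests only through the posterior libraries and so had to differ. The posterior genotypes overlapped, with a DKO difference of 0.18 ± 0.295 (SE, adjusted p = 0.825).

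Posterior Msgn1 levels overlapped between genotypes and separated by somite number. The 4 embryos labelled with 20 to 22 somites had 22.3 to 27.6 CPM, and the 5 embryos with 23 or 24 somites had 10.6 to 20.4, with control and DKO embryos in both sets. The other 8 genes overlapped between these sets, Tbx6 with 28.9 to 48.1 and 30.1 to 39.0 CPM. All 4 embryos of 20 to 22 somites were labelled female. Those of 23 or 24 somites were labelled male, except control embryo 1, whose sex-linked expression was not that of its female label. Somite number and sex therefore cannot be told apart in this split. The split was chosen after the values had been seen and no test was made.

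**Figure D3:**
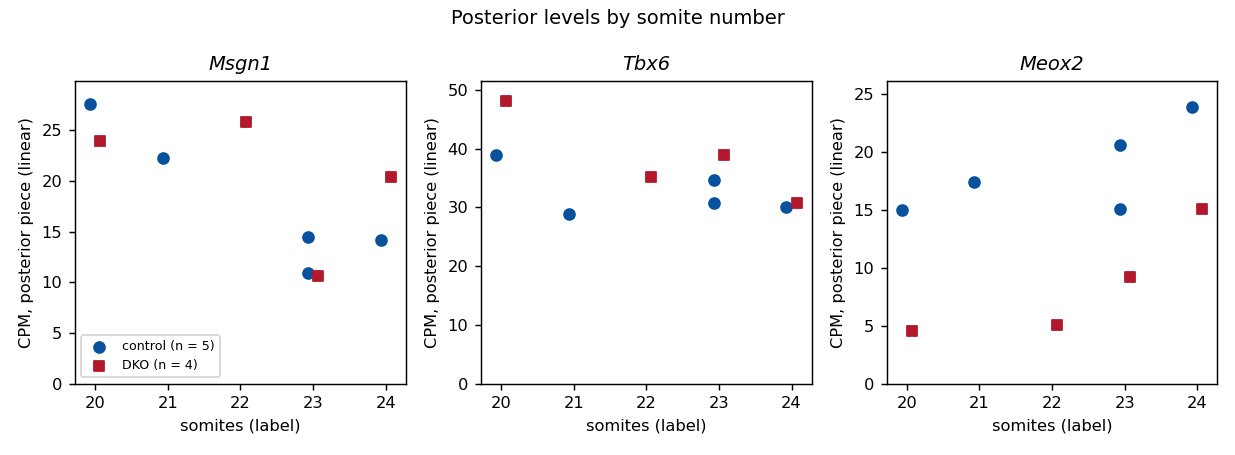
CPM in the posterior piece (linear axes) against the labelled somite number for Msgn1, Tbx6 and Meox2, with 1 point per embryo (5 control, 4 DKO). Msgn1 is above 22 CPM in all embryos of 20 to 22 somites and at or below 20.4 in those with more somites. These sets also differ by sex, by the label or, for control embryo 1, by sex-linked expression. For Meox2 control and DKO embryos are apart except for DKO embryo 2.

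Pcdh8 (paraxial protocadherin, ENSMUSG00000036422, chr14:79766775-79771312) was at 28.8, 27.0, 30.6, 33.6 and 29.9 CPM in anterior control libraries and at 43.2, 36.0, 40.3 and 34.9 in anterior DKO libraries. All 4 DKO libraries were above all 5 controls, a difference of 0.36 ± 0.0803 (SE, log2) that did not pass the adjustment over all genes with edgeR (adjusted p = 0.111) and passed with DESeq2 (0.00741, with 0.00741 to 0.512 over all alternatives). In posterior libraries it was at 38.4, 43.0, 54.3, 47.3 and 51.5 CPM in controls and at 44.7, 60.9, 27.7 and 34.5 in DKO embryos. There the DKO libraries spread to both sides of the controls, with a difference of -0.16 ± 0.192 (adjusted p = 0.750). Control embryos had more Pcdh8 in the posterior piece, by 0.64 ± 0.0935 (adjusted p = 0.000246), and in DKO embryos the difference was 0.13 ± 0.204 (adjusted p = 0.747). The summed level of 8 neural tube markers was also higher in the anterior DKO libraries, 523 to 595 CPM beside 395 to 484 in controls, and all 8 had a positive DKO difference (0 past the threshold with edgeR, 7 at an unadjusted p below 0.05 beside 6.41% of all genes on that side, 6 with DESeq2 beside 1.94%). Its part in the Pcdh8 values was not tested. An antisense gene, Gm9748, shares 436 exonic bases with Pcdh8, and counting by strand is not given in the sources used here.

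Pcdh19 (ENSMUSG00000051323, chrX:133582860-133688987) was at 12.6, 13.8, 15.6, 15.1 and 14.9 CPM in anterior control libraries and at 18.9, 17.8, 18 and 14.9 in anterior DKO libraries. In posterior libraries it was at 48.6, 65.1, 53.3, 59.1 and 74.8 CPM in controls and at 68.1, 51.2, 62.5 and 47.9 in DKO embryos. Regions did not overlap in either genotype, and genotypes overlapped in both pieces. The posterior excess was 2.07 ± 0.112 (SE, log2) in controls (adjusted p = 1.11e-07) and 1.73 ± 0.124 in DKO embryos (adjusted p = 1.21e-05). The DKO difference was 0.28 ± 0.0933 in the anterior (adjusted p = 0.255) and -0.07 ± 0.134 in the posterior piece (adjusted p = 0.856). The gene is X-linked, the embryos were of both sexes, and 57 exonic bases are shared with Gm26851. Per kilobase of exon, the log2 ratio of Pcdh8 to Pcdh19 averaged 2.26 ± 0.103 (SD) in anterior and 0.85 ± 0.245 in posterior control libraries, and 2.35 ± 0.0931 and 0.70 ± 0.587 in DKO libraries.

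Tcf15 (ENSMUSG00000068079, chr2:152143561-152149097) was at 15.4, 18.3, 15, 16.5 and 16.5 CPM in anterior control libraries and at 12.7, 16.5, 14.3 and 12.8 in anterior DKO libraries. In posterior libraries it was at 25.4, 24.7, 26.7, 29.6 and 60.5 CPM in controls and at 24.9, 27.2, 16.3 and 35.2 in DKO embryos. Posterior control library 5 stood above all others of its group, and genotypes overlapped in both pieces. The posterior excess was 1.02 ± 0.225 (SE, log2) in controls (adjusted p = 0.00484) and 0.89 ± 0.202 in DKO embryos (adjusted p = 0.0114), and the latter missed the threshold without DKO embryo 1 (0.86, adjusted p = 0.0758). The DKO difference was -0.22 ± 0.0989 in the anterior (adjusted p = 0.377) and -0.36 ± 0.287 in the posterior piece (adjusted p = 0.613), where it was -0.04 without control embryo 5 (adjusted p = 0.960).

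Meox1 (ENSMUSG00000001493, chr11:101877510-101894374) was at 159, 195, 179, 188 and 197 CPM in anterior control libraries and at 111, 155, 143 and 142 in anterior DKO libraries. In posterior libraries it was at 214, 205, 248, 243 and 232 CPM in controls and at 137, 192, 98.5 and 169 in DKO embryos. In both pieces every DKO library was below every control library. The DKO difference was -0.42 ± 0.0950 (SE, log2) in the anterior piece (adjusted p = 0.123 with edgeR, 0.00204 with DESeq2) and -0.61 ± 0.159 in the posterior piece (adjusted p = 0.282 with edgeR, 0.0121 with DESeq2). Over all alternatives the adjusted p ranged from 0.00204 to 0.354 and from 0.0121 to 0.534. Control embryos had slightly more Meox1 in the posterior piece, by 0.32 ± 0.0709 (adjusted p = 0.00530), and in DKO embryos the difference was 0.12 ± 0.184 (adjusted p = 0.732).

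Meox2 (ENSMUSG00000036144, chr12:37108540-37179534) was at 38.3, 38.5, 30.3, 31.3 and 33.8 CPM in anterior control libraries and at 11.4, 28.9, 13.6 and 22.3 in anterior DKO libraries. In posterior libraries it was at 20.6, 15, 23.9, 17.4 and 15.1 CPM in controls and at 5.07, 15.1, 4.54 and 9.22 in DKO embryos. The groups did not overlap in the anterior piece, and in the posterior piece DKO library 2 reached the level of the lowest controls while the other 3 were below all of them. The DKO difference was -0.86 ± 0.234 (SE, log2) in the anterior (adjusted p = 0.173) and -1.11 ± 0.317 in the posterior piece (adjusted p = 0.334). Without DKO embryo 2 the anterior difference was -1.13 (adjusted p = 0.0491). Meox2 was the only gene of the set lower in the posterior piece, by -0.90 ± 0.130 in controls (adjusted p = 0.000227) and -1.15 ± 0.405 in DKO embryos (adjusted p = 0.0805). With the embryo as a block the DKO value was -1.22 (adjusted p = 0.000192). The posterior piece had the lower Meox2 level in each of the 9 embryos.

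The balance of the Meox paralogues differed between regions. Per kilobase of exon, with 0.5 counts added, the log2 ratio of Meox1 to Meox2 averaged 2.50 ± 0.227 (SD) in anterior control, 3.02 ± 0.469 in anterior DKO, 3.73 ± 0.261 in posterior control and 4.34 ± 0.456 in posterior DKO libraries. Values ran from 2.13 to 2.67 and from 2.51 to 3.47 in the anterior groups and from 3.46 to 4.02 and from 3.75 to 4.83 in the posterior groups. Regions did not overlap within a genotype, and genotypes overlapped within a region.

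DKO embryo 2 had the highest Meox1 and Meox2 of the 4 DKO embryos in both pieces, and also the highest Meis1 and Meis2. In the anterior piece the order of the DKO embryos from low to high was 1, 3, 4, 2 for Meox2, Meis1 and Meis2, and in the posterior piece it was 3, 1, 4, 2 for Meox1, Meox2 and Meis1. The order of Meox1 in the anterior piece was 1, 4, 3, 2 and that of Meis2 in the posterior piece 4, 3, 1, 2. Tcf15 shared the anterior order of Meox1. Other genes of the set differed, with 2, 1, 4, 3 for anterior Foxc2 and 4, 2, 3, 1 for Pcdh19 in both pieces. In the posterior piece Tcf15, Foxc1 and Foxc2 had 3, 1, 2, 4. The posterior order 3, 1, 4, 2 is also that of the embryos' somite numbers (20, 22, 23 and 24). Control embryos, too, had their lowest posterior Meox2 and Meis1 at 20 somites (15 and 59.6 CPM) and their highest at 24 (23.9 and 99.9 CPM). Between these they did not all follow somite number. Control embryo 5 (23 somites) had 15.1 and 83.1 CPM, and control embryo 4 (21 somites) had 17.4 and 87.1. By the labels DKO embryos 1 and 3 were female and 2 and 4 male. Both female embryos were below both male ones for Meox2 and Meis1 in both pieces. Somite number, sex and Meis1 level cannot be told apart in these posterior DKO libraries. Relative to the control mean, Meox2 ran from -1.59 to -0.24 (log2) over the anterior DKO libraries and from -1.98 to -0.26 over the posterior ones. Meis1 ran from -0.48 to -0.18 and from -0.83 to -0.21. With 4 embryos these orders are a description, and no correlation was computed.

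**Figure D4:**
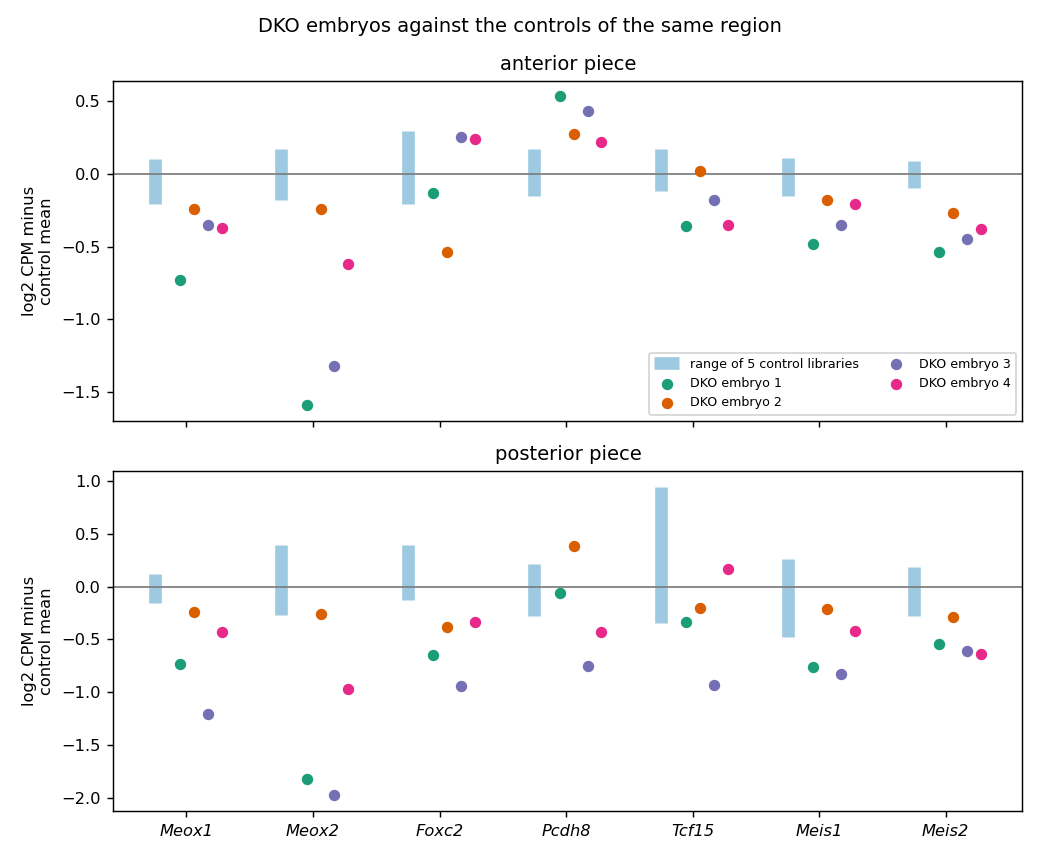
Log2 CPM of each DKO library minus the mean of the 5 control libraries of the same region, for 5 of the genes and for Meis1 and Meis2. Bars span the control libraries and colours mark the DKO embryos. DKO embryo 2 lies closest to the controls for Meox1 and Meox2 in both pieces.

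Foxc1 (ENSMUSG00000050295, chr13:31806633-31812476) was at 46.3, 51.9, 54.5, 61.6 and 54.4 CPM in anterior control libraries and at 46.3, 57.0, 57.7 and 58.7 in anterior DKO libraries. In posterior libraries it was at 61.3, 70.1, 69.6, 75.6 and 96.7 CPM in controls and at 70.3, 72.6, 65.1 and 88.9 in DKO embryos. Genotypes overlapped in both pieces. The DKO difference was 0.03 ± 0.0869 (SE, log2) in the anterior (adjusted p = 0.921) and -0.01 ± 0.129 in the posterior piece (adjusted p = 0.991). The posterior excess was 0.47 ± 0.111 in controls (adjusted p = 0.00709), where the highest anterior library just exceeded the lowest posterior one, and 0.44 ± 0.107 in DKO embryos (adjusted p = 0.0160). The latter missed the threshold without DKO embryo 1 (0.39, adjusted p = 0.0713) or DKO embryo 2 (0.47, adjusted p = 0.0571).

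Foxc2 (ENSMUSG00000046714, chr8:121116171-121118895) was at 71.0, 73.1, 73.7, 70.5 and 102 CPM in posterior control libraries and at 49.3, 59.5, 40.2 and 61.4 in posterior DKO libraries. Every posterior DKO library was below every posterior control, by -0.57 ± 0.142 (SE, log2), which did not pass with edgeR (adjusted p = 0.270) and passed with DESeq2 (0.0140, with 0.0140 to 0.534 over all alternatives). In anterior libraries it was at 29.9, 42.5, 32.1, 39.0 and 31.2 CPM in controls and at 31.7, 23.7, 41.1 and 40.8 in DKO embryos, which overlapped, with a difference of -0.03 ± 0.161 (adjusted p = 0.960). The posterior excess was 1.15 ± 0.123 in controls (adjusted p = 1.98e-05) and 0.62 ± 0.182 in DKO embryos (adjusted p = 0.0397). The DKO value missed the threshold without DKO embryo 1, 2 or 4 (0.61, 0.42 and 0.63, adjusted p = 0.161, 0.150 and 0.0714).

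Foxc2 and Foxc1 differed in how their posterior levels stood to the controls. Per kilobase, the log2 ratio of Foxc1 to Foxc2 was -1.17 ± 0.111 (SD, -1.31 to -1.0) in posterior controls and -0.59 ± 0.168 (-0.81 to -0.40) in posterior DKO libraries, with no overlap. In the anterior piece it was -0.47 ± 0.203 and -0.39 ± 0.372, with overlap. No test was made of these ratios. Paralogues can share reads. The expected counts of the pair were fractional in 16 of 18 libraries, by at most 0.0800 counts, and their sum was whole within 0.02 in 17. Foxc2 lies inside the readthrough gene Gm20388, with 0 exonic bases shared. The 6 intermediate mesoderm markers, from a tissue that also expresses Foxc genes, summed to 74.7 to 92.0 CPM in posterior control and 36.0 to 58.9 in posterior DKO libraries. Of these 6, 0 passed between genotypes (edgeR), 6 had an unadjusted p below 0.05 on the lower side beside 5.74% of all genes, and DESeq2 called 3 beside 1.08%. Their part in the Foxc2 values was not tested.

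Markers of other cell types were summed beside the Meox genes. In the anterior piece the 6 lateral plate markers summed to 63.3 to 139 CPM in controls and 37.1 to 57.3 in DKO embryos, with no overlap, and the intermediate mesoderm markers to 10.7 to 27.5 and 7.15 to 17.3, with overlap. Taken singly, 0 of 6 lateral plate and 2 of 6 intermediate mesoderm markers did not overlap, beside 5.07% of all genes. With edgeR 0 passed, and 2 and 3 had an unadjusted p below 0.05 on the lower side, beside 6.61%. DESeq2 called 0 and 3 (Pax2, Pax8 and Wt1, lower), beside 1.94%. The 8 primitive erythroid markers summed there to 965 to 4651 CPM in controls (median 2711) and 1213 to 2028 in DKO embryos (median 1833), with overlap. In the posterior piece the erythroid markers summed to 1369 to 2215 CPM in controls (median 1572) and 1648 to 3398 in DKO embryos (median 2505), with overlap, and the lateral plate markers to 95.1 to 138 and 85.6 to 122, also with overlap. No marker of these lists was at 0 in every library of a group. With region, intermediate mesoderm markers were higher in the posterior piece (above) and neural tube markers lower (185 to 293 CPM in controls, 233 to 319 in DKO embryos). Their part in the 9 genes' differences was not tested.

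Whether the DKO effect differed between pieces was tested as the interaction of region and genotype over 18 libraries. Of 9 genes 0 passed (edgeR), as did 0% of all 16428 genes, and all 9 adjusted p-values were 0.999. DESeq2 also called 0 of the 9, beside 0.0609% of the genes it gave an adjusted p. At an unadjusted p below 0.05 there were 2 of 9, both on the lower side (1.42% of all genes). Pcdh8 was at -0.52 and Foxc2 at -0.54 (log2, posterior effect minus anterior effect). Pcdh8 was at -0.79 without DKO embryo 2 and -0.35 without DKO embryo 3, and Foxc2 at -0.74 and -0.34. With the embryo as a block there were 3 of 9 at an unadjusted p below 0.05, Pcdh8 (-0.56), Pcdh19 (-0.34) and Foxc2 (-0.52), all on the lower side, where 2.34% of all genes were. Their adjusted p was 0.851 (edgeR). The pieces were also compared embryo by embryo. Pcdh19 was higher in the posterior piece in all 9 embryos, by 1.77 to 2.32 in controls and 1.52 to 1.84 in DKO embryos. Pcdh8 was higher in the posterior piece in 5 of 5 control embryos, by 0.41 to 0.82, and in 2 of 4 DKO embryos, from -0.54 to 0.76. Foxc2 was higher there in 5 of 5 control embryos, by 0.78 to 1.70, and in 3 of 4 DKO embryos, from -0.03 to 1.32. Meox1 was higher in 5 of 5 and 3 of 4. DKO embryo 3, with 20 somites, gave the lowest difference of the DKO embryos for Pcdh8, Tcf15, Meox1, Meox2, Foxc1 and Foxc2 and the highest for Tbx6. The control embryo with 20 somites gave the lowest for Tcf15, Meox1, Meox2 and Foxc2 among controls.

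**Figure D5:**
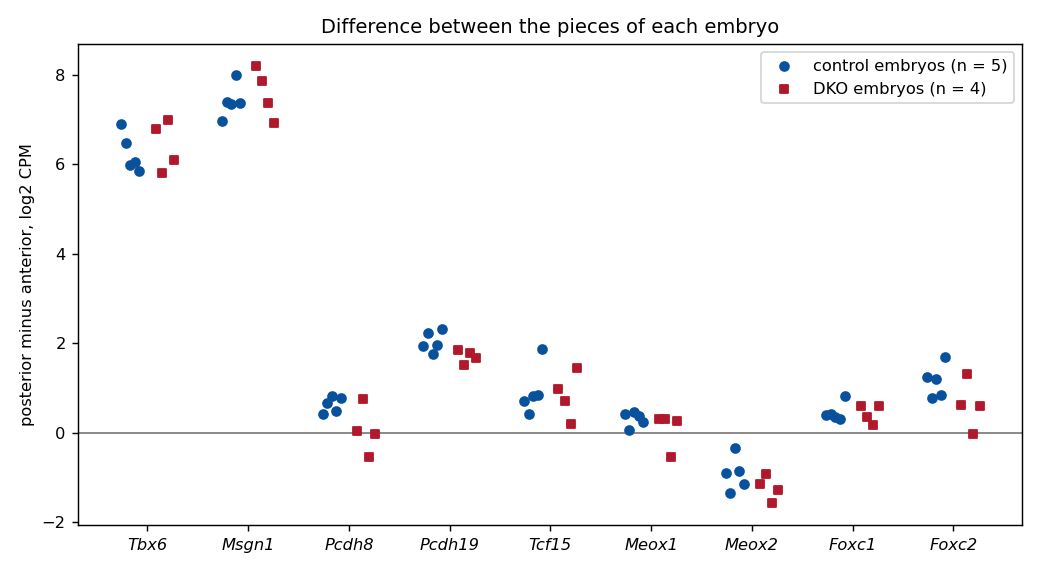
Posterior minus anterior log2 CPM within each embryo, with 1 point per embryo (5 control, 4 DKO). Meox2 is below 0 in all 9 embryos, and Pcdh8 ranges from 0.41 to 0.82 in controls and from -0.54 to 0.76 in DKO embryos.

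Levels were compared between genes per kilobase of exon. Exon length was the union over annotated transcripts, which for Pcdh8 (4538 bases) covers the whole gene. Meox1 led in all 4 groups, with 82.4 ± 6.99 CPM per kilobase (SD) in anterior control, 61.8 ± 8.54 in anterior DKO, 103 ± 8.20 in posterior control and 67.0 ± 18.3 in posterior DKO libraries. Its range did not overlap that of the next gene in any group. In anterior controls Tcf15 (16.7), Meox2 (14.6) and Foxc2 (12.8) followed with ranges that overlapped from neighbour to neighbour, then Foxc1 (9.20), Pcdh8 (6.61), Pcdh19 (1.37), Tbx6 (0.196) and Msgn1 (0.0253). Of these last 5, only Tbx6 and Msgn1 overlapped, both at few counts. In posterior controls Tcf15 (34.1), Msgn1 (29.2) and Foxc2 (28.6) followed, with overlap, then Tbx6 (18.1), Foxc1 (12.8), Pcdh8 (10.3), Meox2 (7.80) and Pcdh19 (5.75). Among these last 5, each overlapped the next. Msgn1 thus went from the lowest mean level in the anterior piece to one of the highest in the posterior piece.

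In the order of the DKO libraries Meox2 was 6th in the anterior piece at 8.07 ± 3.43 CPM per kilobase, overlapping Pcdh8 (8.50), and last in the posterior piece at 3.60 ± 2.07, overlapping Pcdh19 (5.49). In the posterior piece Msgn1 (33), Tcf15 (26.5), Tbx6 (21.2) and Foxc2 (19.3) followed Meox1, each overlapping the next.

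Other genes of the same processes were read from 5 lists chosen beside the 9. Their calls between pieces stand beside 12.1% of all genes called higher, of 25.4% called, in controls and 8.76% of 18.5% in DKO embryos. Clock genes Hes7, Mesp1, Mesp2, Ripply2 and Cer1, bud genes Cdx2, Cdx4, Fgf4, Fgf17 and Evx1 and the early somite gene Papss2 did not pass the filter on low counts in the anterior libraries. They entered these tests through the posterior libraries, so their calls, like those of Tbx6 and Msgn1, are no support for a difference. Of 12 clock and boundary genes, 9 were higher in the posterior piece in controls and 8 of 11 tested in DKO embryos (edgeR), of which 5 and 4 entered in that way. DESeq2 also called Lfng lower there in DKO embryos, which was at -0.44 (adjusted p = 0.0897) with edgeR. The largest differences were those of Cer1, from 0.0475 to 5.14 CPM in controls and 0.0417 to 2.93 in DKO embryos, and of Hes7, the clock repressor, from 0.276 to 15.9 and 0.158 to 21.1. Of 12 axial bud genes 10 were higher and Sox2 lower in the posterior piece in controls, and 9 were higher and Sox2 lower in DKO embryos, where 5 of the 10 and 4 of the 9 entered in that way. Cdx4 went from 0.0733 to 80.8 CPM in controls and from 0.0632 to 84.6 in DKO embryos, Evx1 from 0.0983 to 31.3 in controls and Fgf17 from 0.126 to 51.1 in DKO embryos. Sox2, also a neural gene, differed by -0.70 (adjusted p = 1.68e-05) and -0.62 (adjusted p = 0.000291).

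The 12 early somite genes were mixed in controls, 3 higher and 5 lower in the posterior piece, with 0 and 3 in DKO embryos. In controls Papss2 (1.36, adjusted p = 0.00677) and Uncx (1.0, adjusted p = 0.00364) were higher, and Pax7 (-1.98, adjusted p = 8.37e-05) and Nkx3-2 (-1.42, adjusted p = 0.00389) lower. In DKO embryos Pax7 (-1.61, adjusted p = 0.000202) and Nkx3-2 (-1.48, adjusted p = 0.0276) were lower. Pax7 marks dermomyotome and Nkx3-2 sclerotome, tissues of maturing somites.

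Of the other 7 delta protocadherins, 2 were higher and 2 lower in the posterior piece in controls, and 2 higher and 3 lower in DKO embryos. Pcdh7 (1.74, adjusted p = 3.22e-05) and Pcdh1 (0.71, adjusted p = 0.000164) were higher in controls, as Pcdh8 and Pcdh19 were, while Pcdh10 (-2.29, adjusted p = 2.07e-05) and Pcdh18 (-0.41, adjusted p = 0.0134) were lower. In DKO embryos Pcdh7 (1.69, adjusted p = 9.91e-05) and Pcdh1 (0.52, adjusted p = 0.00145) were higher, and Pcdh10 (-2.09, adjusted p = 0.000936) and Pcdh17 (-0.79, adjusted p = 0.0153) lower. Of 9 other mesodermal forkhead genes, 3 were higher in controls, led by Foxf1 (1.28, adjusted p = 0.00151) and Foxf2 (0.76, adjusted p = 0.00294). In DKO embryos Foxf1 was higher (1.98, adjusted p = 0.0198) and Foxd1 lower (-0.57, adjusted p = 0.00575).

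Between genotypes 0 genes of the 5 lists passed in either piece (edgeR). At an unadjusted p below 0.05 in the anterior piece, where 6.41% of all genes were on the higher side in DKO and 6.61% on the lower side, there were 5 of 7 tested clock and boundary genes (3 on the higher side, 2 on the lower). There were 5 of 11 early somite genes (1 and 4), 3 of 7 bud genes (3 and 0), 1 of 6 protocadherins (0 and 1) and 1 of 8 forkhead genes (0 and 1). In the posterior piece, beside 5.27% and 5.74% of all genes, the counts were 2 of 12 (0 and 2), 4 of 12 (0 and 4), 2 of 12 (2 and 0), 1 of 6 (0 and 1) and 3 of 8 (0 and 3). DESeq2 called Dll1 (higher) and Pax1 (lower) in the anterior piece and Sox2 (higher) and Foxd2 (lower) in the posterior piece. The median log2 difference in the posterior piece was -0.38 over the 12 early somite genes and 0.22 over the 12 bud genes, beside 0.01 over all genes. In the anterior piece it was -0.06 over the 11 tested early somite genes and 0.21 over the 7 tested bud genes, beside 0.00 over all genes.

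Likeness to each gene was measured as the root mean square difference of centred log2 CPM over the 18 libraries, among 11817 protein-coding genes with a mean of at least 50 counts. Closest to Tbx6 were Hoxa13 (0.47), Gad1 (0.53) and Hes7 (0.56), and closest to Msgn1 were Hoxc11 (0.56), Fgf17 (0.67) and Evx1 (0.71). These genes, too, were near 0 in the anterior piece. Closest to Meox2 were Pax1 (0.27), Aff3 (0.45) and Foxp2 (0.45), and to Meox1 Sorl1 (0.18), Tgfb3 (0.19) and Cxcl12 (0.20). Pax1, a sclerotome gene, averaged 54.2 ± 5.78 CPM (SD) in anterior control, 28.4 ± 10.3 in anterior DKO, 33.5 ± 6.63 in posterior control and 17.6 ± 9.84 in posterior DKO libraries, the same order of groups as Meox2 except that posterior controls lay above anterior DKO libraries. Pcdh8 was closest to Bcar3 (0.22), Selenop (0.23) and Amigo2 (0.24), and Pcdh19 to Pcolce2 (0.22), Gnal (0.23) and Sall1 (0.24). Tcf15 was closest to Ctf1 (0.27), Foxc2 (0.30) and Stx3 (0.31), Foxc1 to Mgat4a (0.14), Cnot11 (0.14) and Fjx1 (0.15), and Foxc2 to genes that include Sept4 (0.23) and Ablim1 (0.27). The spread of a gene over the libraries sets the scale of these values: it was 3.77 for Msgn1 and 0.28 for Foxc1.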

How the data were processed

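Poly(A) RNA libraries were read from 1 end at 61 bp, per the labels' protocols. The deposited table holds expected counts per Ensembl gene, as deposited by the authors, and the submitters' processing notes name RSEM, CASAVA, cutadapt and the build GRCm38. The aligner, the versions and the use of strand are not given in the sources used here. Of 53465 identifiers, 53360 were found in GENCODE M21, which gave symbols, positions and exon lengths.

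Counts were rounded and tested in R 4.3.3 with edgeR 4.0.16 (filterByExpr with minimum count 10 and minimum total 15, TMM scaling, glmQLFit, glmQLFTest), with Benjamini-Hochberg adjustment over all genes tested. CPM are TMM-scaled, with 2 prior counts on the log2 scale. The SE is the log2 fold change divided by the square root of F. The code was tested on simulated data. Alternatives used RLE scaling, DESeq2 1.42.0, limma-voom (limma 3.58.1), other filters, covariates, 1 joint fit, the embryo as a block, and leaving out each embryo. The labels name no molecular identifiers.

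Both pieces of an embryo were matched on genotype, sex and somite labels. After removing group means, pieces of 1 embryo correlated at 0.256 to 0.57 over 16428 genes (9 pairs), and libraries of different embryos of 1 genotype at -0.283 to 0.0916. The embryo therefore pairs the pieces. The main region and interaction fits did not use this pairing, which entered only in the alternative with the embryo as a block. Region comparisons and the interaction share libraries.

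All 9 genes are named in every comparison. Of each other list, genes past the threshold between genotypes and the 2 largest differences in each direction between regions are named, with the 3 genes most like each of the 9. For Foxc2, 1 of the 3 is not reported here. The genes, lists and tests were chosen with earlier results of these data known.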

Additional observations from a re-analysis of the deposited data

Results flagged for a closer look

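Each of the 36 sets of values of 1 gene in 1 group of 4 or 5 libraries was checked for a highest or lowest library far from the others of its group. Chance marks about 1 in 20 such sets, and 5 were marked. Tcf15 in posterior control library 5 was at 60.5 CPM, where the other 4 controls were at 24.7 to 29.6. Foxc2 in the same library was at 102 CPM, above the others at 70.5 to 73.7. Foxc1 in anterior DKO library 1 was at 46.3 CPM, below the others at 57.0 to 58.7. Msgn1 was at 0.0775 CPM (2 counts) in anterior control library 2 and at 0.0577 CPM (1 count) in anterior DKO library 3, where the other libraries of each group had 0, so these values are at the limit of counting. The causes were not tested.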

How the results depend on the processing

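Between genotypes, the number of the 9 genes past the threshold in the anterior piece was 0 and became 2 with DESeq2 (Pcdh8 and Meox1) and 1 with sex label and somite number as covariates (Meox1). That covariate kept the sex label of control embryo 1, which its sex-linked expression went against. The number was 0 to 1 when an embryo was left out, the 1 being Meox2 without DKO embryo 2. In the posterior piece it was 0 and became 2 with DESeq2, and it was 0 whichever embryo was left out. In the region comparison of controls it was 9 under every alternative run. In DKO embryos it was 6, and it was 3 to 6 when an embryo was left out, the 3 without DKO embryo 1 being Tbx6, Msgn1 and Pcdh19. It was 7 with the embryo as a replicate block, which added Meox2 and changed no other call, and 7 with no filter on low counts. The interaction gave 0 under every alternative, the block included.

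These differences changed direction. Posterior Foxc1 was 0.01 and the Tcf15 interaction 0.01 with limma-voom. With an embryo left out, the DKO difference ran from -0.02 to 0.11 for anterior Foxc1, from -0.13 to 0.11 for anterior Foxc2, from -0.11 to 0.10 for posterior Foxc1 and from -0.16 to 0.02 for posterior Pcdh19. The region difference of Pcdh8 in DKO embryos ran from -0.14 to 0.30. Interactions ran from -0.10 to 0.06 for Foxc1, -1.10 to 2.44 for Msgn1, -0.02 to 0.38 for Tbx6 and -0.36 to 0.18 for Tcf15. The causes were not tested. Anterior Msgn1 and Tbx6 rest on few counts, which limits their folds and the Msgn1 interaction.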
